A study of Mus musculus with 16 samples.

Results

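The complement genes measured here are C1qa, C1qb, C1qc, C2, C3, C4b, Cfb, C3ar1 and C5ar1, taken from the array annotation by gene name (C1qc is also spelled C1qg there). They are 9 of 30010 gene names on the array and are covered by 12 of 41135 probes. All 16 samples, 1 array each, are tumour preparations of B16-BL6, an invasive line of the B16 mouse melanoma, from male C57BL/6J mice aged 8 weeks. The 4 groups, of 4 tumours each, are control (no treatment), ALA (5-aminolevulinic acid, a heme precursor, at 50 mg per kg), X-ray, and the combination ALA plus X-ray, with local ALA ahead of fractionated irradiation. The dose of ALA is labelled for the ALA group and stated for the series as a whole. The radiation dose, the number of fractions and the time of sampling are not given in the sources used here, and no sham injection is named for the control or X-ray groups. RNA came from whole tumours, so fewer cells of a type and less RNA per cell cannot be told apart.

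Complement is a cascade of plasma and tissue proteins that marks targets for phagocytes. In the classical pathway C1q binds a target, its proteases cleave C4 and C2, and these form a convertase that cleaves C3. In the alternative pathway factor B (Cfb) joins C3b to make a second C3 convertase, which properdin stabilises. C3a and C5a, the small fragments released, signal through C3ar1 and C5ar1 on myeloid cells. C1q is made chiefly by macrophages and dendritic cells, whereas C3, C4 and factor B are also made by many stromal and epithelial cells.

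The probes of the C1q genes lie within 15891 bases of chromosome 4, and those of C4b, Cfb and C2 on chromosome 17, where 5717 bases separate the nearer C2 probe from that of Cfb. The sequences shown are 60-base probes of 5 members (for C2 the dimmer of its probes, which gave another call than the brighter), with positions in the mouse build mm9 on the minus strand as the array annotation gives them. The Cfb and C2 probes span 357 and 176 bases of genome, so their bases lie in more than 1 exon. The annotation does not give the exon or the coding part for the others.
C1qa, chr4:136452409-136452468: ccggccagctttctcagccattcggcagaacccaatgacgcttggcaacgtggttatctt
C1qb, chr4:136436578-136436637: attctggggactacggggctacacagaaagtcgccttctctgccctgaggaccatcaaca
C4b, chr17:34866361-34866420: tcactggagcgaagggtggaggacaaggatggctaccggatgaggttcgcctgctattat
Cfb, chr17:34993502-34993858: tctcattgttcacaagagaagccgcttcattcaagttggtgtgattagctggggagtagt
C2, chr17:35000126-35000301: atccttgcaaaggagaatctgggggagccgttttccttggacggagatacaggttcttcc
The C4b probe lists RefSeq transcripts of both C4b and C4a, the near-identical sex-limited protein gene, so its signal cannot be assigned to C4b alone. The probe named for C4a also lists transcripts of both genes, and it was well above background on 0 of 16 arrays.

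Promoters of 5 of the 9 members were in the RefSeq table used (build GRCm38.p6). The 250 bases before the start of C1qb, C1qc and C3 are shown because they hold a match to a searched motif; those of C3ar1 and C5ar1 held none and are not shown. Capitals mark matches, on either strand, to GAGGAA (the core bound by ETS factors such as PU.1 of myeloid cells) in C1qb and C1qc, and to TTGCNNAA (a C/EBP-type site, N any base) in C3.
C1qb, chr4:136886201-136886450, minus strand: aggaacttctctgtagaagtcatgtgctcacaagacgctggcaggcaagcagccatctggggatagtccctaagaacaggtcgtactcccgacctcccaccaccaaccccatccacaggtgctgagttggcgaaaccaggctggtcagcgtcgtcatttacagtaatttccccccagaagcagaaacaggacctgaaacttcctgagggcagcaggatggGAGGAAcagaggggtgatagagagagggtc
C1qc, chr4:136892915-136893164, minus strand: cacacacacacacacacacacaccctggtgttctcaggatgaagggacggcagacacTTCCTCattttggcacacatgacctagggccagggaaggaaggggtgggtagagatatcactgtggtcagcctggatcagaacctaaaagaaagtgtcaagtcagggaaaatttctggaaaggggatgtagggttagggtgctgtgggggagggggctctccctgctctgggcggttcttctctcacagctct
C3, chr17:57228137-57228386, minus strand: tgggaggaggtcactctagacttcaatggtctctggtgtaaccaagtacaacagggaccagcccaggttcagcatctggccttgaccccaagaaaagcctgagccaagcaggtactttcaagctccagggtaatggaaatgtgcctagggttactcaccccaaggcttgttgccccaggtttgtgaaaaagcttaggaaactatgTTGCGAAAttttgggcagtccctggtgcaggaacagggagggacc
Counted from the start site, the matches begin at -30 in C1qb, at -193 in C1qc (opposite strand) and at -45 in C3. GAGGAA occurred in 23.3% of the 32851 promoters of the same length and TTGCNNAA in 9.56%. The interferon-stimulated response element, searched as TTTC, any 2 bases and TTTC on both strands, occurred in 2.98% of promoters and in 0 of the 5 members. A match describes these letters only and is not evidence of binding.

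Values are given as levels, the processed signal divided by the 75th percentile of the same array, so that a level of 1 is that percentile. A level can be compared between arrays for 1 probe but not between probes. Differences are on the log2 scale from 1 linear model (limma) over all 16 arrays, with its standard error (SE), and p-values are adjusted by Benjamini-Hochberg over the 15399 genes tested. A gene was tested if 4 or more arrays had a probe of it flagged as well above background. Of the members, 8 passed: C5ar1 did not, with 0 of 16 arrays well above background, and C3ar1 reached 4 arrays only through those of ALA plus X-ray, so a difference there was built into its passing and its calls are no support. The tissue label was checked on 10 melanocyte markers: all 10 were tested, and their mean log2 level lay between 4.57 and 5.05 on every array. Spots well above background made up 44.3% to 53.6% of an array. Replicate number and slide coincided, each of the 4 slides holding 1 array of every group, with each group always at its own place there, so place and group cannot be told apart. X-ray replicate 1 and ALA plus X-ray replicate 1, on slide 1, stood apart from their groups: the mean log2 level of 15 macrophage markers was 1.91 in X-ray replicate 1 against -0.84 to 0.70 in the other 3, and 1.44 in ALA plus X-ray replicate 1 against 2.86 to 3.30 in the other 3. The 24 interferon response genes had means of 2.37 in X-ray replicate 1 against -1.04 to -0.49 in the other 3. Counts and calls that moved when slide 1 was left out are given beside the main ones for the members and the main lists. For ALA plus X-ray against control or against ALA, the share of all genes called without slide 1 is not given here.

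The 3 C1q genes encode the chains of the recognition molecule that starts the classical pathway. Their group means ranked alike: lowest in ALA, then X-ray, then control, and highest in ALA plus X-ray. C3 (by the probe that stands for the gene), Cfb and C3ar1 had the same order, so 6 of the 8 tested members shared it. The place of C3ar1 at the top was built into its passing the filter and is no support. Between neighbours in this order the arrays overlapped for all 3 C1q genes, except that ALA plus X-ray lay wholly above control for C1qb.

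C1qa had levels of 2.14, 2.88, 2.85 and 5.61 in control replicates 1 to 4. They were 0.461, 0.997, 0.155 and 0.363 in ALA, 6.19, 1.67, 0.991 and 0.377 in X-ray, and 4.48, 13.3, 9.55 and 19.8 in ALA plus X-ray. All 4 ALA arrays lay below all controls, and X-ray replicate 1 lay above every control while the other 3 X-ray arrays lay below.

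C1qb had levels of 1.05, 1.52, 1.55 and 2.33 in control and 0.427, 0.785, 0.386 and 0.381 in ALA. It had 2.85, 1.70, 0.667 and 0.474 in X-ray and 2.44, 7.76, 5.01 and 9.62 in ALA plus X-ray. Here too the ALA and control arrays did not overlap, and the highest X-ray array exceeded the lowest ALA plus X-ray array.

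C1qc had levels of 3.82, 6.13, 5.99 and 8.29 in control and 0.985, 2.34, 0.352 and 0.718 in ALA. It had 8.12, 3.16, 1.70 and 0.572 in X-ray and 8.12, 22.4, 25.0 and 30.6 in ALA plus X-ray. The first array of X-ray and of ALA plus X-ray had the same level, whereas the other 3 of each group were far apart.

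**Figure D1:**
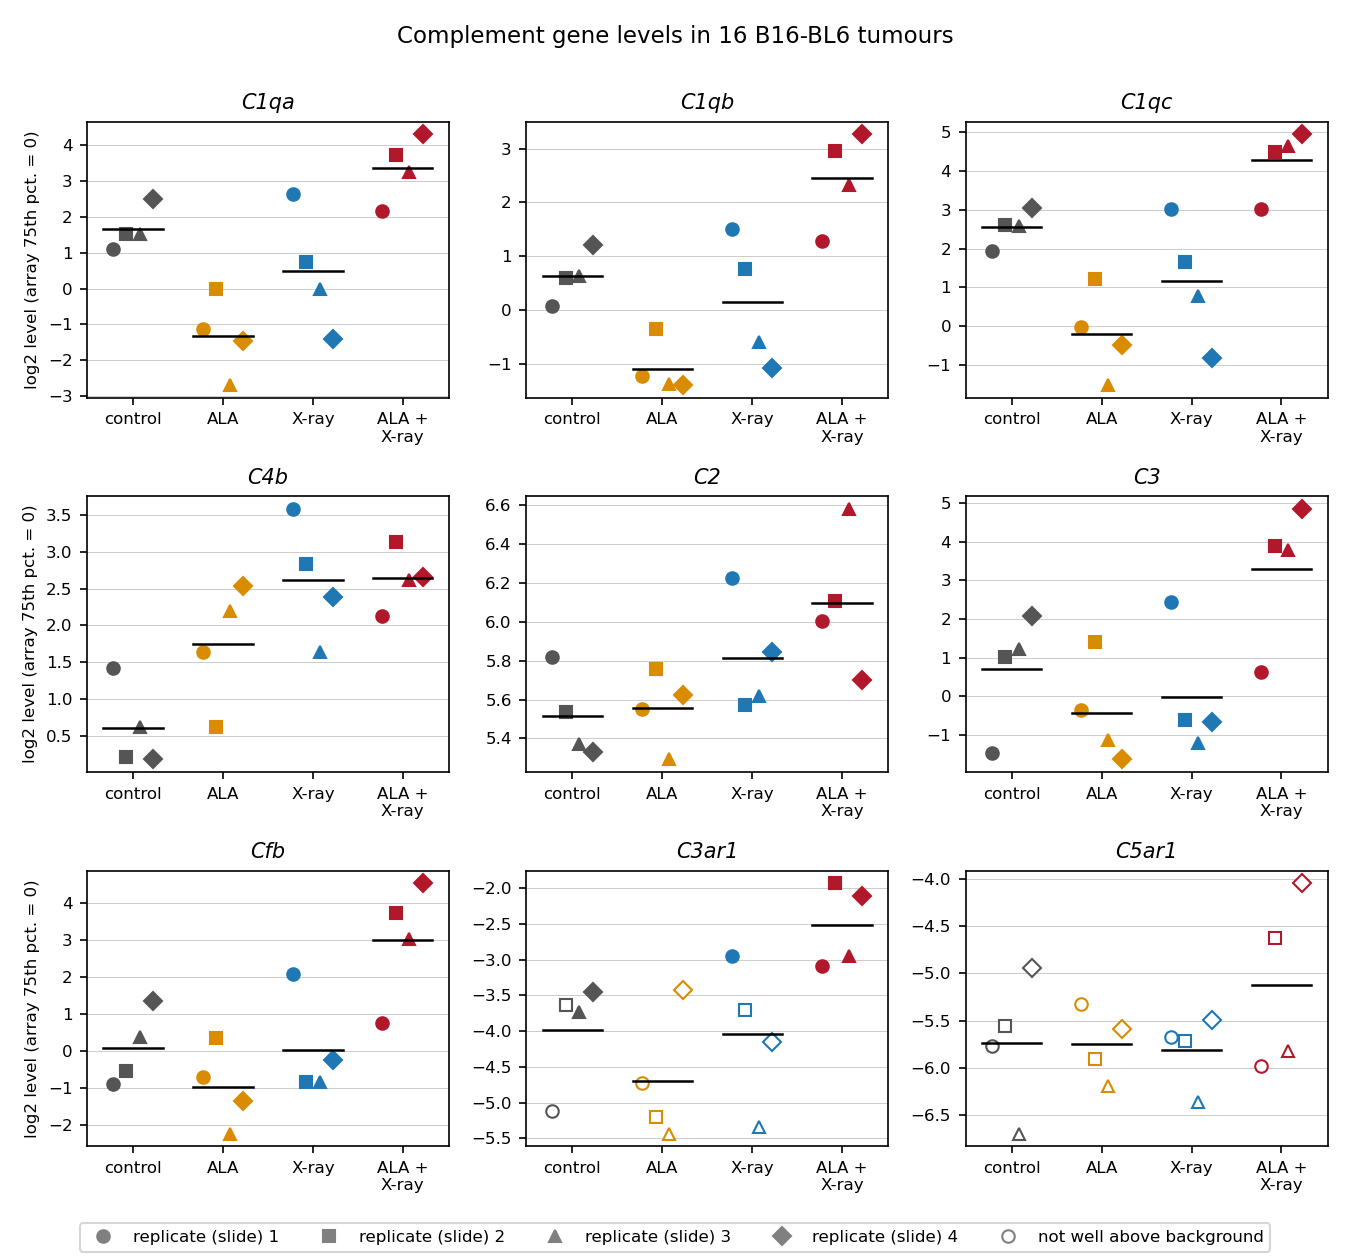
Log2 level of each complement gene (vertical axis, array 75th percentile at 0) in the 4 groups (horizontal axis). Each point is 1 tumour, its shape the replicate and slide, open where the probe was not well above background; lines are group means. C1qa, C1qb, C1qc, C3, Cfb and C3ar1 share 1 order of group means, C4b is high in both irradiated groups, and C5ar1 is open on all 16 arrays.

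With ALA added to X-ray, C1qb rose by 2.30 (SE 0.53, adjusted p = 0.0433) and C1qc by 3.11 (SE 0.71, adjusted p = 0.0431), 4.94-fold and 8.64-fold. The difference of C1qa was 2.88 (SE 0.74), with an adjusted p of 0.0569. Thus 2 of 8 members were called higher and 0 lower, where 2.07% of all genes were called and 1.3% were called higher. With replicate number (slide) as a block, both C1qb and C1qc had an adjusted p of 0.0545. The calls depended on single arrays. Without X-ray replicate 1 or without ALA plus X-ray replicate 1, 5 members were called. Without all of slide 1, 6 were called, among them C3ar1, whose calls are no support. Without any 1 of the other 3 arrays of either group, 0 were called. Over all genes the number called in this comparison ran from 3 to 3135 with 1 array left out, and was 2982 without slide 1.

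Against control, C1qb rose by 1.83 (SE 0.53, adjusted p = 0.0249), 3.54-fold, with ALA plus X-ray. This call was lost without control replicate 1 (0.0709) or 2 (0.0586) and without ALA plus X-ray replicate 2 (0.0692), 3 (0.0526) or 4 (0.0714). In the same comparison C1qa differed by 1.71 (SE 0.74, adjusted p = 0.103) and C1qc by 1.73 (SE 0.71, adjusted p = 0.0878). Against ALA alone, all 3 rose: C1qa by 4.68 (SE 0.74, adjusted p = 0.00238), C1qb by 3.54 (SE 0.53, adjusted p = 0.00203) and C1qc by 4.47 (SE 0.71, adjusted p = 0.00238). Over all members, 4 of 8 were called higher against control and 6 of 8 against ALA, and 0 were called lower in either; without C3ar1 these were 4 of 7 and 5 of 7. The backgrounds were 24.9% of genes called (9.77% higher) against control and 24.1% (10.7% higher) against ALA. The number called against control was 8, C3ar1 among them, without ALA plus X-ray replicate 1. It was 1 without control replicate 2 or ALA plus X-ray replicate 2 or 3. It was 2 without control replicate 1 or ALA plus X-ray replicate 4. Over all genes the number called against control ran from 1954 to 5953 with 1 array left out. These comparisons share the ALA plus X-ray arrays and are not independent of each other.

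ALA alone against control gave C1qa -2.97 (SE 0.74), C1qb -1.72 (SE 0.53) and C1qc -2.74 (SE 0.71), with adjusted p-values of 0.730, 0.755 and 0.755. In limma 0 of 8 members and 0% of all 15399 genes were called here; 961 genes (6.24%) had an unadjusted p under 0.05. Groups that did not overlap, with ALA lower, were seen for 3 of 8 members (the C1q genes) and for 2.51% of all genes. With array weights, which give less to arrays that vary more, all 3 were called lower, with adjusted p-values of 0.0260 (C1qa and C1qc) and 0.0479 (C1qb).

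X-ray alone against control gave -1.17 (SE 0.74) for C1qa, -0.48 (SE 0.53) for C1qb and -1.38 (SE 0.71) for C1qc, with adjusted p-values of 0.384, 0.640 and 0.277. Without slide 1 they were -2.07, -1.12 and -2.21 (adjusted p = 0.146, 0.223 and 0.128). The means combine slide 1, where X-ray exceeded control for all 3, with slides 3 and 4, where it lay below control for all 3.

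The interaction asks whether irradiation changed a gene differently with ALA than without it. It was positive for C1qa (5.85, SE 1.05, adjusted p = 0.0275), C1qb (4.02, SE 0.75, adjusted p = 0.0295) and C1qc (5.85, SE 1.01, adjusted p = 0.0272). These were 3 of 8 members called, all positive, against 1.23% of all genes called and 0.896% called positive. With the replicate block the adjusted p was 0.0582 for C1qa and C1qc and 0.0583 for C1qb. The interaction was called for 6 members without slide 1, for 5 without X-ray replicate 1 or without ALA plus X-ray replicate 1, and for 0 without any 1 of control replicates 2 to 4, ALA replicates 3 or 4, X-ray replicates 2 to 4 or ALA plus X-ray replicates 2 to 4. It was called for 1 member without ALA replicate 1. The 6 called without slide 1 include C3ar1, whose calls are no support. Over all genes the number called for the interaction ran from 1 to 1065 with 1 array left out.

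**Figure D2:**
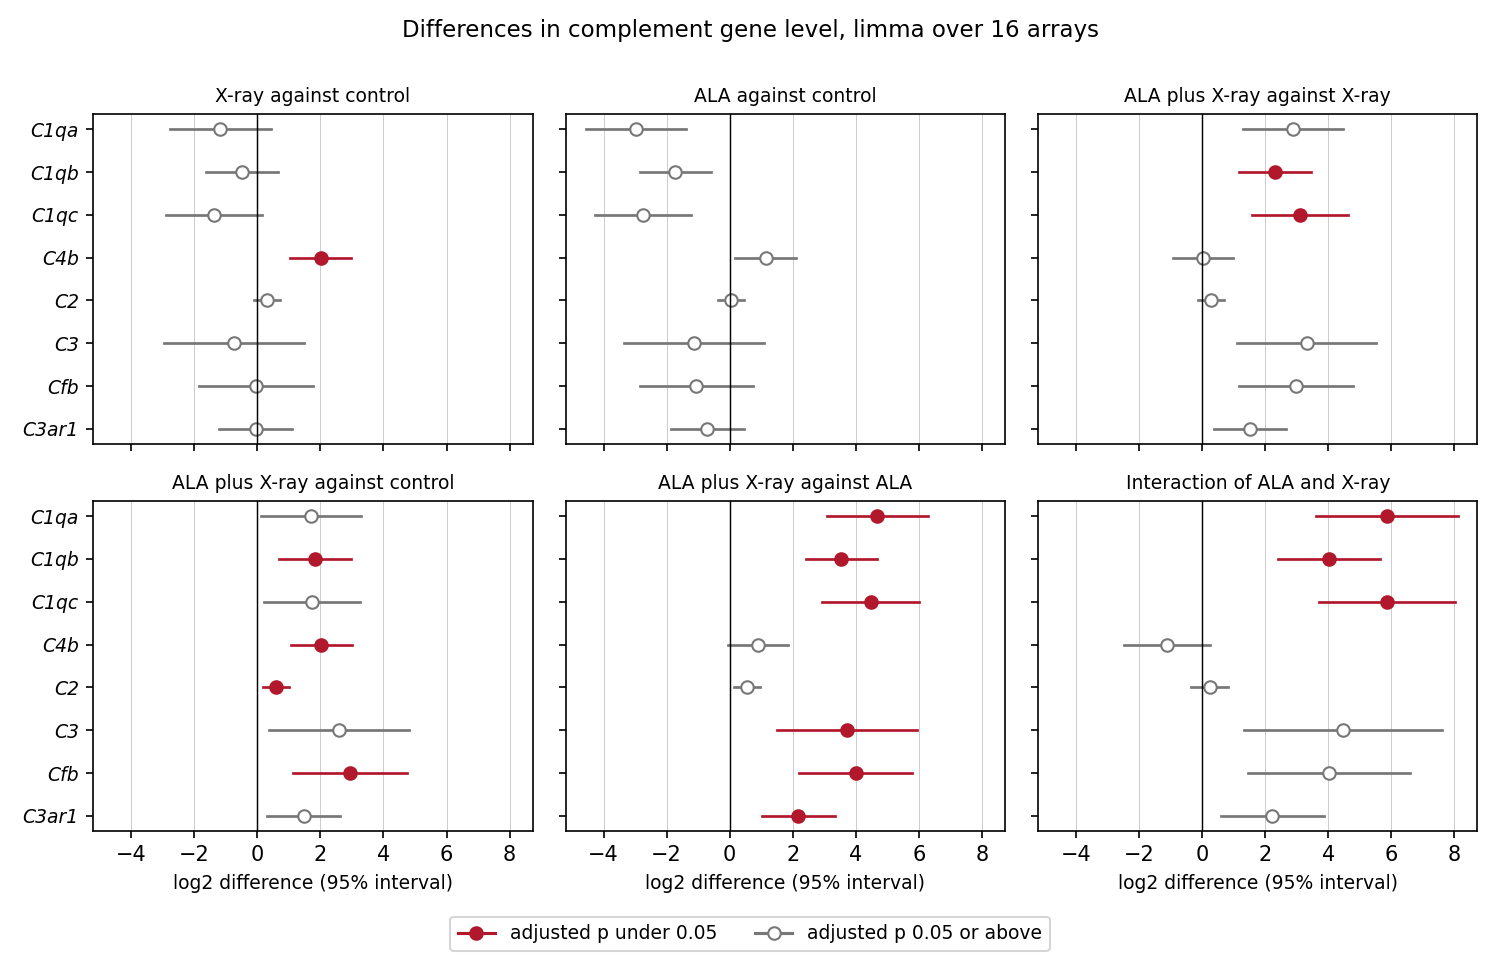
Log2 difference (horizontal axis) of the 8 tested complement genes in 6 comparisons, with the 95% interval of the limma fit; filled points have an adjusted p under 0.05. C4b alone is filled for X-ray against control, and the 3 C1q genes are filled for the interaction.

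The macrophage markers moved with the C1q genes. All 15 listed were tested; 7 were higher and 0 lower for ALA plus X-ray against X-ray (median 2.51, all genes -0.08), 6 higher against control, 13 higher against ALA, 0 in either direction for ALA or X-ray against control, and 9 positive for the interaction. Over all genes 1.3% were called higher against X-ray, 9.77% against control and 10.7% against ALA, and 0.896% positive for the interaction. Without slide 1 the counts higher were 14 against X-ray, 9 against control, 14 against ALA and 13 for the interaction. More of all genes were then also called against X-ray and for the interaction, as the closing section gives. The control arrays had mean log2 levels of these markers between 0.51 and 1.58, and the ALA arrays between -1.31 and 0.45. The X-ray arrays lay between -0.84 and 1.91, and those with both treatments between 1.44 and 3.30. Adgre1, which encodes a surface receptor that defines mouse macrophages, rose by 3.14 (SE 0.72, adjusted p = 0.0431) with ALA plus X-ray against X-ray. Lyz2, lysozyme of myeloid cells, rose by 2.27 (SE 0.45, adjusted p = 0.0344), and Cd68, a lysosomal protein of macrophages, by 1.37 (SE 0.33, adjusted p = 0.0473). Csf1r, the receptor for the macrophage growth factor CSF1, gave 2.34 (SE 0.75, adjusted p = 0.0987), and 3.38 (adjusted p = 0.0127) without slide 1. The part of macrophage number in the C1q values was not tested.

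Other cell markers also differed in level. Fibroblast markers, 10 of 10 tested, had mean log2 levels between -0.34 and 1.32 on control arrays and between -0.95 and 0.69 on ALA arrays. The means lay between -0.58 and 0.97 on X-ray arrays and between 0.26 and 3.44 on arrays of both treatments. Against ALA 7 were called higher, where 10.7% of all genes were, and 0 were called in the other 5 comparisons. Of the 10, 3 passed the filter only through the ALA plus X-ray arrays. Leaving those out, 5 of 7 were higher against ALA. Without slide 1 but with those 3 included, 9 of the 10 were higher against X-ray, 6 against control and 9 for the interaction. More of all genes were then also called against X-ray and for the interaction, as the closing section gives. T and NK cell markers had 6 of 12 tested, 4 of them only through the ALA plus X-ray arrays; their mean log2 level averaged -4.03 on control, -4.18 on ALA and -3.67 on X-ray arrays, against -1.95 on arrays of both treatments. Of these 6, 2 were called higher against control and 2 against ALA, and 0 in any comparison without the 4. Over all genes 9.77% and 10.7% were called higher against control and against ALA. Without slide 1 but with the 4 included, 4 of 6 were higher against X-ray, 4 against control and 4 against ALA. Neutrophil markers had 2 of 10 tested. Their means were -3.66 on control, -1.05 on ALA and -2.80 on X-ray arrays, against -0.39 on arrays of both treatments. Of the 2, 1 was called higher, for the combination against control. Without slide 1, 2 were higher against control and 2 against X-ray. Skeletal muscle markers, 10 of 10 tested, lay between -4.11 and 3.34 on control arrays and between -4.32 and -2.49 on ALA arrays. They lay between -4.32 and -0.35 on X-ray arrays and between -4.0 and 4.81 on arrays of both treatments. In the main fit 0 were called in any comparison, but 5 were higher against ALA without slide 1. Of the 10, 1 was tested only through the ALA plus X-ray arrays. Of 10 dendritic cell markers 5 were tested, 1 of them only through the ALA plus X-ray arrays. In the main fit 0 were called higher in any comparison, and 1 was lower against ALA. Without slide 1, 1 was higher against X-ray, 1 against ALA and 1 for the interaction, and 0 were lower. The part of these cells in the complement values was not tested.

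**Figure D3:**
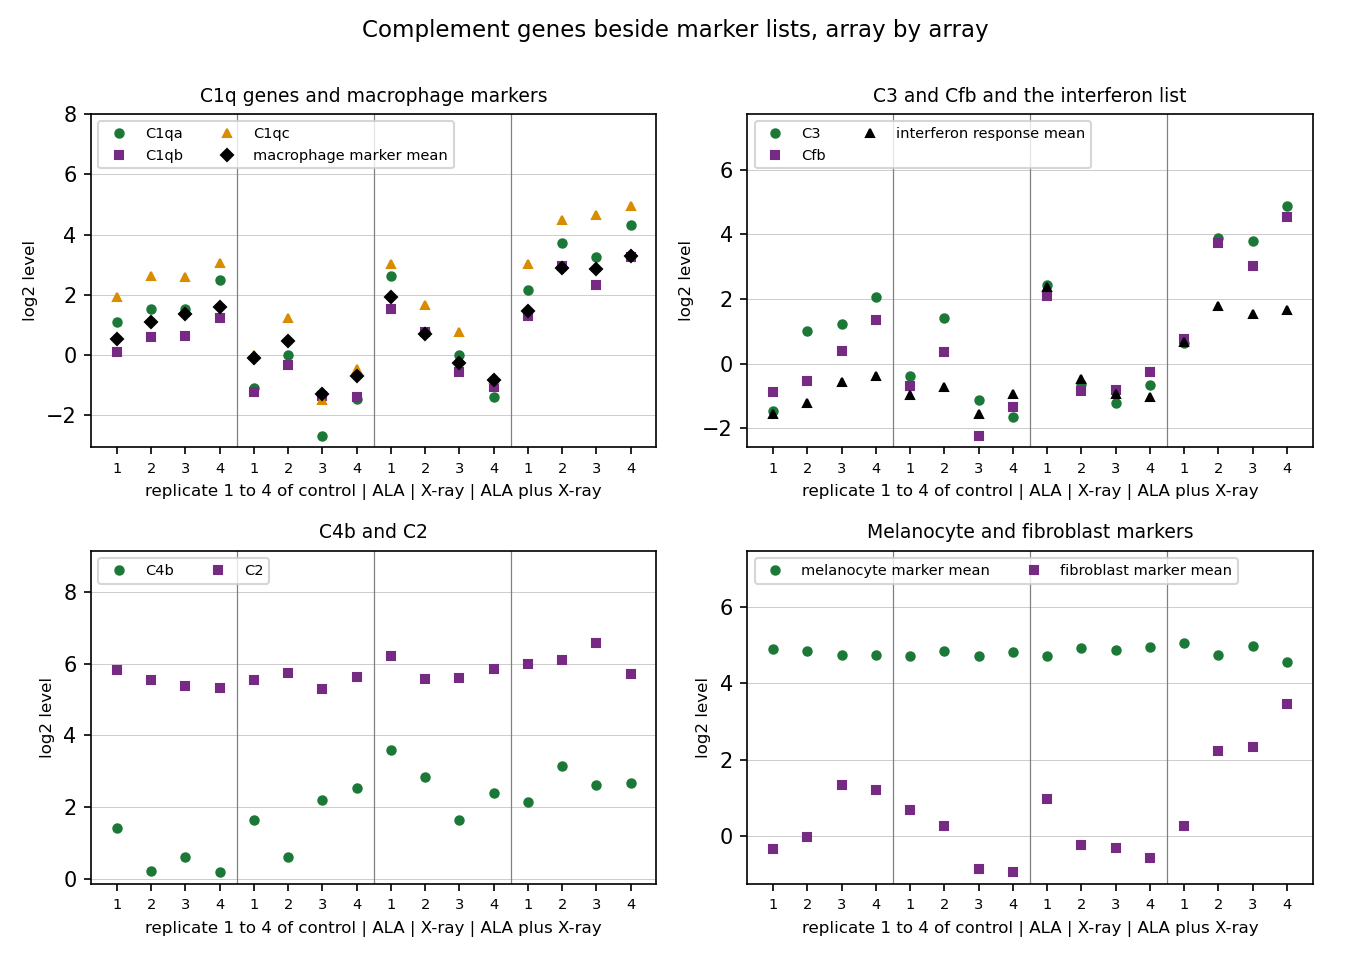
Log2 levels by array (replicates 1 to 4 of each group along the horizontal axis) of complement genes beside mean levels of macrophage, interferon, melanocyte and fibroblast lists. C4b has its lowest group mean in control, and the melanocyte mean stays between 4.57 and 5.05.

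C4 and C2 are cleaved after C1q binds and form the classical C3 convertase. C4b, the fourth component, was the only member called for X-ray alone against control. Its levels were 2.67, 1.15, 1.53 and 1.13 in control and 3.11, 1.53, 4.57 and 5.79 in ALA. They were 12.0, 7.11, 3.12 and 5.21 in X-ray and 4.39, 8.77, 6.16 and 6.33 in ALA plus X-ray. All 8 irradiated arrays lay above all 4 controls; such separation of X-ray above control was seen for 7.83% of all genes and of ALA plus X-ray above control for 8.99%. In these 2 comparisons it held for 1 and 3 of the 8 members. The 3 include C3ar1, whose separation was built into its passing the filter and is no support. The irradiated groups overlapped each other.

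C4b rose by 2.01 (SE 0.45, adjusted p = 0.0323), 4.03-fold, with X-ray against control. It was thus 1 of 8 members called, where 3.37% of all genes were called and 1.99% were called higher. X-ray exceeded control on each of the 4 slides, by 2.17, 2.63, 1.03 and 2.21. With ALA plus X-ray against control it rose by 2.04 (SE 0.45, adjusted p = 0.00855), 4.10-fold. ALA plus X-ray differed from X-ray by 0.03, with a 95% interval from -0.93 to 0.99 (adjusted p = 0.978), which spans changes in both directions. ALA against control gave 1.14 (SE 0.45, adjusted p = 0.778). The call for X-ray was lost without X-ray replicate 1 (1.68, adjusted p = 0.0837), 2 (1.94, 0.0972) or 4 (2.09, 0.0780), without control replicate 2 (1.88, 0.103), 3 (2.01, 0.0594) or 4 (1.87, 0.0878), and without slide 1 (1.96, 0.0872). Median scaling gave 1.98 with an adjusted p of 0.0677, and testing without the filter gave an adjusted p of 0.0927.

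C2, the protease partner of C4b in the convertase, has a pair of probes that were well above background on all 16 arrays. The brighter one, which stands for the gene, had levels of 56.5, 46.5, 41.4 and 40.3 in control, 46.9, 54.0, 39.2 and 49.2 in ALA, 74.7, 47.5, 49.1 and 57.5 in X-ray, and 64.0, 68.8, 95.7 and 52.1 in ALA plus X-ray. Every neighbouring pair of groups overlapped. By this probe C2 rose with ALA plus X-ray against control, by 0.58 (SE 0.19, adjusted p = 0.0419), 1.5-fold, and was not called in the other 5 comparisons. Against control, with the replicate block the adjusted p was 0.0507 and with median scaling 0.145. The call against control was also lost without control replicate 2 (0.0840), 3 (0.0874) or 4 (0.102), without ALA plus X-ray replicate 2 (0.0829) or 3 (0.125), without the filter (0.0862) and with only the arrays compared (0.0966). Against ALA it gave 0.54 (adjusted p = 0.0551), which passed under normexp (0.0385), quantile scaling (0.0255), the deposited table (0.0265), the filter on all 16 arrays (0.0430), trend and robust moderation (0.0361) and array weights (0.0265), and without ALA plus X-ray replicate 1 (0.0494) or 4 (0.0348).

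The other C2 probe had levels of 5.50, 4.75, 4.84 and 4.10 in control, 5.68, 5.80, 4.72 and 5.84 in ALA, 7.88, 6.87, 7.12 and 8.51 in X-ray, and 8.21, 8.80, 7.01 and 5.87 in ALA plus X-ray. Both irradiated groups lay wholly above control and ALA. When all probes were tested separately, this probe rose by 0.67 (SE 0.14, adjusted p = 0.0324) with X-ray against control, where the brighter probe gave 0.30 (adjusted p = 0.411). It rose by 0.63 (SE 0.14, adjusted p = 0.0104) with ALA plus X-ray against control and by 0.43 (SE 0.14, adjusted p = 0.0444) against ALA. The probes of C2 thus disagreed on the call for X-ray alone.

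C3 is the component on which the classical and alternative pathways meet, and Cfb provides the protease of the alternative C3 convertase. The levels of C3 were 0.357, 2.03, 2.32 and 4.21 in control and 0.773, 2.63, 0.457 and 0.319 in ALA. They were 5.39, 0.649, 0.430 and 0.629 in X-ray and 1.55, 14.8, 13.7 and 29.1 in ALA plus X-ray. The probe is printed 10 times on the array and its spots were averaged. The spread within groups was wide: 1 X-ray array exceeded all controls, and 1 ALA plus X-ray array lay below 3 of the controls. A second C3 probe, farther from the end of the transcript, was well above background on 0 of 16 arrays.

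Cfb had levels of 0.539, 0.687, 1.31 and 2.53 in control and 0.615, 1.28, 0.212 and 0.396 in ALA. It had 4.23, 0.561, 0.562 and 0.840 in X-ray and 1.69, 13.2, 8.15 and 23.3 in ALA plus X-ray. As with C3, X-ray replicate 1 was high and ALA plus X-ray replicate 1 low for its group.

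With ALA plus X-ray, Cfb rose by 2.94 against control (SE 0.84, adjusted p = 0.0236), 7.66-fold, and by 3.99 against ALA (SE 0.84, adjusted p = 0.00690). Against X-ray it gave 2.97 (SE 0.84, adjusted p = 0.0696). C3 rose by 3.73 against ALA (SE 1.04, adjusted p = 0.0211), 13.3-fold, and gave 2.59 against control (SE 1.04, adjusted p = 0.0799) and 3.31 against X-ray (SE 1.04, adjusted p = 0.0909). The call of Cfb against control was lost without control replicate 1 (0.0682) or 2 (0.0659), without ALA plus X-ray replicate 2 (0.0651), 3 (0.0549) or 4 (0.0693), and with only the arrays compared (0.0519). That of C3 against ALA was lost without ALA replicate 3 (0.0503) or 4 (0.0620) and without ALA plus X-ray replicate 2 (0.0541), 3 (0.0556) or 4 (0.0603). Without slide 1, ALA plus X-ray against X-ray gave 5.01 for C3 (adjusted p = 0.000851) and 4.40 for Cfb (adjusted p = 0.00154). X-ray against control gave -0.73 for C3 (SE 1.04, adjusted p = 0.724) and -0.03 for Cfb (SE 0.84, adjusted p = 0.986). ALA against control gave -1.14 for C3 (SE 1.04, adjusted p = 0.866) and -1.05 for Cfb (SE 0.84, adjusted p = 0.847).

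Interferon response genes were measured beside C3 and Cfb, which interferons are known to induce. All 24 listed were tested: 18 were higher and 0 lower with ALA plus X-ray against control, 19 higher against ALA, and 0 were called in the other 4 comparisons; over all genes 9.77% were called higher against control and 10.7% against ALA. Of the 24, 2 reached the filter only through the ALA plus X-ray arrays. Leaving those out, 17 of 22 were higher against control and 18 of 22 against ALA. Without slide 1, and with those 2 included, 23 of the 24 were higher against control and 24 against ALA. Against X-ray 23 were higher, and 16 were for the interaction. More of all genes were then also called against X-ray and for the interaction, as the closing section gives. The mean log2 level of the 24 lay between -1.57 and -0.38 on control arrays and between -1.56 and -0.73 on ALA arrays. It lay between -1.04 and 2.37 on X-ray arrays and between 0.68 and 1.77 on arrays of both treatments. Ifit1, an interferon-induced antiviral protein, rose by 3.88 (SE 0.79, adjusted p = 0.00646) with ALA plus X-ray against control. Irf1, an interferon-induced transcription factor, gave 1.14 (SE 0.43, adjusted p = 0.0639), and Cxcl9, an interferon gamma-induced chemokine, gave 3.04 (SE 1.26, adjusted p = 0.0888). The part of interferon in the C3 and Cfb values was not tested.

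**Figure D4:**
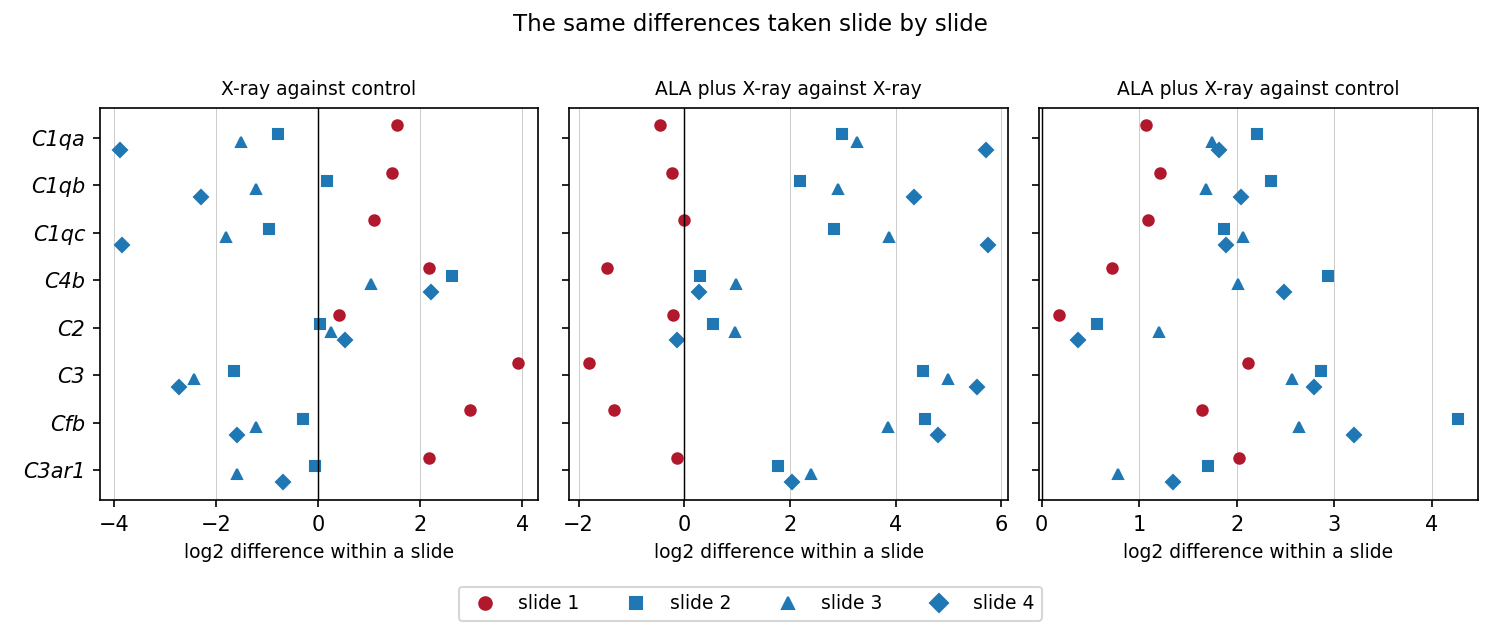
Log2 difference within each slide (horizontal axis) for 8 complement genes in 3 comparisons; slide 1 is red and slides 2 to 4 are blue. For ALA plus X-ray against X-ray, slide 1 lies at or below 0 for all 8 genes, whereas for ALA plus X-ray against control all points lie above 0.

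Slide by slide, ALA plus X-ray exceeded control for 8 of 8 members on all 4 slides and exceeded ALA for 8 of 8 on all 4. The 8 include C3ar1, whose higher level there was built into its passing the filter. ALA plus X-ray against X-ray was different: 0 of 8 members were higher on slide 1 (median -0.35), 8 of 8 on slides 2 and 3 (medians 2.51 and 3.09) and 7 of 8 on slide 4 (median 4.57). X-ray exceeded control for 8 of 8 members on slide 1 (median 1.85), and for 3, 2 and 2 of 8 on slides 2, 3 and 4. C2 and C4b were among the members higher in X-ray on every slide.

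The receptors were dim. C3ar1, the receptor for C3a, was well above background on 2 control, 0 ALA, 1 X-ray and 4 ALA plus X-ray arrays. Its levels on the 4 ALA plus X-ray arrays ran from 0.118 to 0.263. On the ALA arrays they ran from 0.0231 to 0.0934, on control arrays from 0.0289 to 0.0916 and on X-ray arrays from 0.0247 to 0.129. Against ALA the level was at least 2.29-fold higher, a bound set by the lowest signal well above background on the ALA arrays. Its second probe was well above background on 1 control, 0 ALA, 0 X-ray and 4 ALA plus X-ray arrays, with bounds of at least 2.29-fold against X-ray and at least 2.44-fold against ALA. Both probes were measured well enough to be tested only through the ALA plus X-ray arrays, so these values are a description with no test.

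C5ar1, the receptor for C5a, was not well above background on any of the 16 arrays. Its measured levels there ran from 0.00965 to 0.0606 and give only a bound, so no difference is reported for it.

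Within groups, the C1q genes varied together: over the 16 arrays, after removing the group means, Pearson's r was 0.92 for C1qa with C1qb, 0.98 for C1qa with C1qc and 0.91 for C1qb with C1qc. It was 0.93 for C3 with Cfb and 0.77 to 0.84 between the C1q genes and C3 or Cfb. For C4b with the other members it lay between -0.05 and 0.44. These values describe 16 arrays that share scaling and slides, and carry no test.

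The genes most like each member over the 16 arrays, by Pearson's r without removal of group means, were as follows. C1qa was most like C1qc (0.991), Ly86 (0.986) and Lair1 (0.986), and C1qc like Adgre1 (0.994), C1qa (0.991) and Lair1 (0.991). C1qb was most like Nckap1l (0.980), Ly86 (0.978) and Cd48 (0.977). C3 was most like Fgr, Ly6a and Plbd1 (0.970, 0.970 and 0.969), and Cfb like Susd3, Ifi209 and Ly6c2 (all 0.979). C4b was most like Gstm6 (0.922), Elapor1 (0.917) and Cited1 (0.917), and C2 like Tmem14a (0.935), Plaat3 (0.934) and Trim26 (0.928). C3ar1 was most like Tnfrsf11a (0.903), Tusc1 (0.879) and Csf2rb (0.877). Clone and prediction names, and genes not named through RefSeq, were left out of this ranking. Each gene given is among the 3 highest of the tested genes that remained and so is high by selection.

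Of 39 other complement pathway genes listed, 23 were tested. The proteases C1ra and C1s1, which act with C1q, rose with ALA plus X-ray against control by 1.17 (SE 0.20, adjusted p = 0.00322) and 2.10 (SE 0.42, adjusted p = 0.00619). Against X-ray they gave 0.71 (adjusted p = 0.0664) and 1.14 (adjusted p = 0.138). In all, 9 of the 23 were called higher and 0 lower against control, 13 higher and 0 lower against ALA, 2 higher and 0 lower against X-ray, and 0 for ALA against control. Over all genes 9.77%, 10.7% and 1.3% were called higher in the first 3 of these. Of the 23, 4 (Masp1, Hc, Cd55 and Vsig4) reached the filter only through the ALA plus X-ray arrays; without them 8 of 19 were higher against control and 12 of 19 against ALA. Without slide 1, and with those 4 included, 12, 14 and 11 of 23 were higher. More of all genes were then also called against X-ray, as the closing section gives. In the main fit the medians of the 23 were 1.25, 1.3, 1.06 and -0.34, beside -0.08, -0.13, -0.08 and -0.0026 over all genes.

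Cfp, called against X-ray, encodes properdin, which stabilises the alternative convertase. Its levels were 4.19, 1.49, 1.16 and 1.13 in X-ray and 2.76, 8.18, 8.49 and 17.2 in ALA plus X-ray, and it rose by 2.17 (SE 0.52, adjusted p = 0.0473) against X-ray, and by 3.09 without slide 1 (adjusted p = 0.000609). As for C1qa and C1qb, the X-ray array on slide 1 exceeded that of both treatments.

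Among the other regulators, Serping1, the C1 inhibitor, rose by 2.27 (SE 0.60, adjusted p = 0.0166) with ALA plus X-ray against control, and Cd59a, which blocks the membrane attack complex, by 1.25 (SE 0.30, adjusted p = 0.0126). Cfi, the protease that inactivates C3b and C4b, rose by 1.98 (SE 0.52, adjusted p = 0.0162). Itgb2, the beta chain of complement receptors 3 and 4, rose by 1.01 (SE 0.28, adjusted p = 0.0200). Masp1 is a protease of the lectin pathway. The probe that stands for it was well above background on 0 control and 3 ALA plus X-ray arrays. By this probe Masp1 was at least 5.04-fold higher, given with no test because it passed the filter only through those arrays. The other Masp1 probes were well above background on 0 of 16 arrays. Vtn, vitronectin, which binds the terminal complex, was the only one of the 23 called for X-ray against control, lower by a log2 difference of -2.28 (SE 0.49, adjusted p = 0.0295); without slide 1 it was -2.31 (adjusted p = 0.110). Its interaction was 3.48 (SE 0.69, adjusted p = 0.0309), and that of Itgax, the alpha chain of complement receptor 4, was 4.78 (SE 1.09, adjusted p = 0.0495). Vtn was well above background on 4 control, 2 ALA, 1 X-ray and 4 ALA plus X-ray arrays. For Itgax these were 3, 0, 2 and 4, and for Cfi 2, 0, 2 and 4. The sizes of these differences of Vtn, Itgax and Cfi thus rest partly on values near background.

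Itgam, the alpha chain of complement receptor 3, was well above background on 0 ALA arrays and was at least 3.58-fold higher with ALA plus X-ray than with ALA (adjusted p = 0.0171); against X-ray it gave 2.58 (SE 0.71, adjusted p = 0.0657). Hc, the gene of C5, Vsig4, a macrophage complement receptor, and Cd55, which speeds convertase decay, had fitted differences of 0.07, 0.86 and 1.28 with ALA plus X-ray against control, none called. Cfd, factor D, which is made by fat cells and cleaves factor B, ranged from 0.0198 to 29.8 over the arrays and gave 2.94 (SE 2.28, adjusted p = 0.361); of 8 adipocyte markers 6 were tested, with mean log2 levels from -3.19 to 1.91. The part of fat tissue in the Cfd values was not tested.

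**Figure D5:**
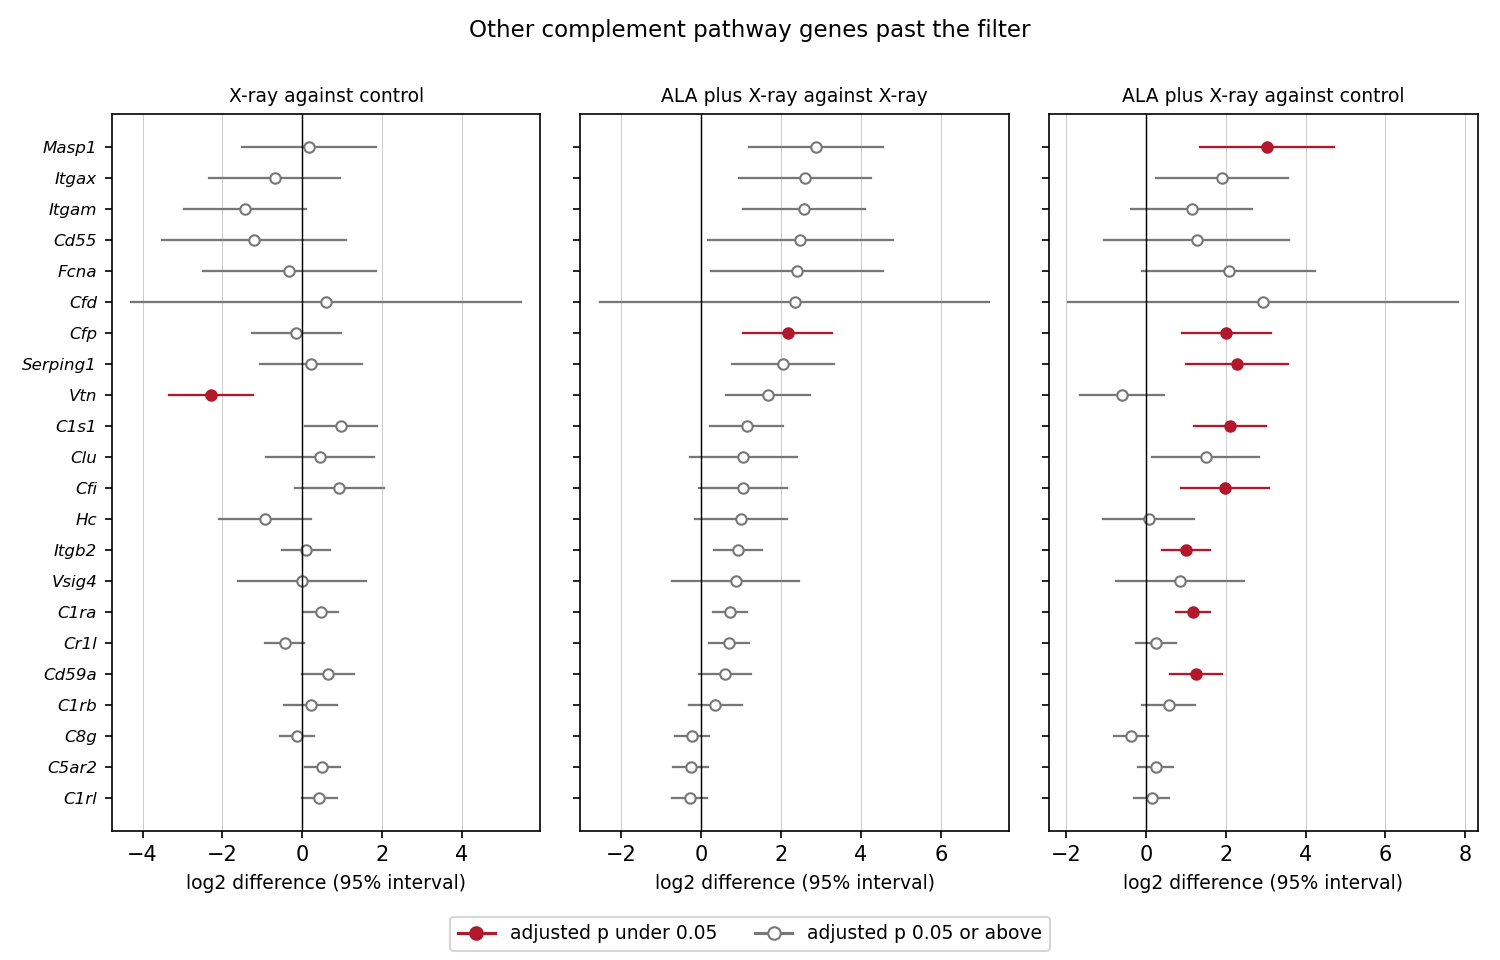
Log2 difference with its 95% interval (horizontal axis) of other complement pathway genes past the filter in 3 comparisons, ordered by the difference for ALA plus X-ray against X-ray; filled points have an adjusted p under 0.05. Points are fitted values also for genes not above background in a group. Vtn is filled in the left panel, Cfp in the middle one and 8 genes in the right one; 1 gene of the list is not drawn.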

How the data were processed

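Total RNA of 16 tumours was hybridised to 1-colour Agilent mouse arrays. Per the file headers, the deposited scanner files hold intensity on a linear scale, background-subtracted by Feature Extraction 10.7.3.1 (the submitters' processing notes name 9.5.3.1), with other values (position, flags) beside it. The authors' deposited table of values gives linear intensity, and its columns all share a median of 31.9; how it was normalised is not given in the sources used here.

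Here log2 processed signal was scaled to each array's 75th percentile, unflagged spots were averaged, and probes were named through RefSeq by accession (26844), symbol (2891) or older symbol (350), while 11050 kept the file's name. The probe of highest mean stood for a gene. Limma 3.58.1 (in R 4.3.3) was fitted to the 4 group means; it was tested on simulated data. Each label names a tumour preparation from a mouse but not whether any animals were pooled or shared, so p-values measure the spread between these samples, which may be technical. Same-numbered arrays of different groups deviated together at r -0.46 to 0.54 (median 0.06), so the numbers were not used as pairs; the slide block is an alternative.

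Members, lists and alternatives were chosen with earlier results of these data known. Named genes are all members; other complement genes from among those that passed, and Cfp, Cfd, Serping1, Hc, Cd55, Cd59a, Itgam and Vsig4; Irf1, Ifit1, Cxcl9, Adgre1, Csf1r, Cd68 and Lyz2; and the 3 genes most like each member. Alternatives were the deposited table, scaling by the median or by quantiles, normexp correction with an offset of 50, a stricter filter (every array) and none, every probe on its own, only the arrays compared, the replicate block, trend and robust moderation, array weights, each array left out and, added after seeing the data, slide 1 left out and counts without genes that passed the filter only through the ALA plus X-ray arrays. The number of arrays limits the precision. Some named genes are not reported here.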

Additional observations from a re-analysis of the deposited data

Results flagged for a closer look

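In 32 sets of 4 arrays (8 members in 4 groups), 3 had 1 array whose gap to the nearest other, as a share of the range, passed Dixon's 95% critical value, where chance gives about 1 in 20. C3 in X-ray replicate 1 was high (gap 0.838 of the range), C1qb in ALA replicate 2 was high (0.841), and C3ar1 in control replicate 1, not well above background, was low (0.830). The interaction differed from 0 for C1qa (5.85), C1qb (4.02) and C1qc (5.85): irradiation went with higher levels in the presence of ALA on 4 of 4 slides for all 3 genes, and without ALA on 1 of 4 slides for C1qa and C1qc and 2 of 4 for C1qb.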

How the results depend on the processing

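Counts called (the combination is ALA plus X-ray) are given for all 15399 genes and for the 8 members, with the main counts being 519 and 1 for X-ray against control, 0 and 0 for ALA against control, 318 and 2 for the combination against X-ray, 3828 and 4 against control, 3713 and 6 against ALA, and 189 and 3 for the interaction. With normexp background, ALA plus X-ray against X-ray gave 520 and 4. With median scaling, X-ray against control gave 28 and 0, and ALA plus X-ray gave 2135 genes against control and 1896 against ALA. With no filter, X-ray against control gave 3 and 0, the combination against X-ray 11 and 0, and the interaction 40 genes. With array weights, X-ray against control gave 2963 genes, ALA against control 40 and 3, ALA plus X-ray 2165 and 6 against X-ray, 6442 and 8 against control and 6438 genes against ALA, and the interaction 2023 and 5. With only the arrays compared, ALA against control gave 2 genes and ALA plus X-ray gave 1 and 0 against X-ray, 1603 genes against control and 1589 against ALA. Without slide 1, chosen after seeing the data, X-ray against control gave 4 and 0, the combination against X-ray 2982 and 6, and the interaction 1339 and 6. C3ar1, whose calls are no support, is among the main 6 against ALA. It is also among the 6 and 8 called with array weights and the 6 called without slide 1. The cause of the changes in count was not tested.

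With the replicate block, ALA plus X-ray against X-ray had 0 members called, and the interaction 8 genes and 0 members. Same-numbered arrays did not deviate together in every pair (r -0.46 to 0.54 over 24 pairs), so beyond the slide they share the numbers were not taken to pair the samples.

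Leaving out 1 array in turn gave 1 to 836 genes and 0 to 1 members for X-ray against control, 0 to 1 and 0 to 0 for ALA against control, 3 to 3135 and 0 to 5 for the combination against X-ray, 1954 to 5953 and 1 to 8 against control, 2165 to 5817 and 5 to 7 against ALA, and 1 to 1065 and 0 to 5 for the interaction. The sign turned for values near 0 that were never called: Cfb for X-ray against control (0.037 with normexp; -0.71 to 0.39 with 1 array left out), C3ar1 for X-ray against control (0.0016 with quantile scaling, 0.0045 in the deposited table; -0.43 to 0.38), C2 for ALA against control (-0.079 with median scaling; -0.027 to 0.14) and C4b for ALA plus X-ray against X-ray (-0.0033 with median scaling; -0.30 to 0.35). Signal over background limits C3ar1 and C5ar1.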
